A study of Mus musculus with 18 samples.

Results

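Solute carriers (Slc genes) are membrane proteins that move nutrients, ions, metals and metabolites into and out of cells and organelles. The set described here was chosen by name and by level. It took every row named Slc, a family number, a letter and a member number, left out Slc12a2, Slc4a2, Slc4a5 and Slc4a10, and kept the genes with a mean of at least 10 CPM (counts scaled to the column total) over the 6 MRL/+ libraries. Of 357 carrier names so matched among 50584 genes, 157 were kept and 200 were under that level, of which 11 had no count in any library. Because the members were chosen by their MRL/+ level, that level is described and not tested, and the strain comparison, which uses the same MRL/+ libraries, is not independent of it. Slc24a3, Slc25a24 and Slc25a35 lay just inside the threshold, at 10.3, 10.1 and 10.01 CPM, and Slc10a7, Slc1a5 and Slc41a2 just outside, at 9.90, 9.83 and 9.82.

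RNA of the choroid plexus was sequenced from lupus-prone MRL/lpr mice (6 libraries aged 12 weeks and 6 aged 16 weeks) and from MRL/+ control mice (3 libraries of each age). MRL/lpr mice share the MRL background with MRL/+ mice and carry in addition the lpr mutation of the death receptor gene Fas in all their cells, with which they develop a lupus-like disease. No treatment was given in the labels, and nothing there says that each library is a different mouse, so the tests rest on the spread among libraries, which may be technical. Total counts per library ran from 11164284 to 14602253, and all 157 members were among the 16598 genes with enough counts to test.

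The choroid plexus is a tuft of fenestrated vessels under a single epithelial layer, and that epithelium, sealed by tight junctions, forms the barrier between blood and cerebrospinal fluid (CSF). Carriers on its blood-facing and CSF-facing sides feed the brain with vitamin C, folate and glucose, clear organic anions and amino acids from the CSF, and set its pH and metal content. Not all members sit on that barrier. By carrier family, 32 of the 157 belong to the Slc25 family, most of which are carriers of the mitochondrial inner membrane, and 16 to families of the Golgi apparatus and endoplasmic reticulum. The others fell into amino acid and peptide carriers (22), metal carriers (20), carriers of inorganic ions (15), organic anion and monocarboxylate carriers (13), vitamin, nucleoside and choline carriers (12), carriers of glucose and other sugars (9), bicarbonate and anion exchangers (6), neurotransmitter carriers (4), lipid carriers (2) and others (6). Of the choroid plexus epithelium list, all 21 markers were tested, and the lowest mean of any of them in any group was 37.4 CPM.

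Promoter sequences are shown for 4 of the carriers called between strains. Slc29a4, Slc22a5 and Slc2a12 fell in MRL/lpr at 16 weeks. The zinc exporter Slc30a1 was not called at either age but was lower over both ages, and belongs to a class with a known metal response motif. Slc35f1, which was called at both ages, is not shown. Each runs from 250 bases before to 50 after the gene start in RefSeq (build GRCm38.p6, the C57BL/6J reference and not MRL), 5′ to 3′ on the gene's strand, and capitals mark matches to TGCGCNC or TGCACNC on either strand, the core of the metal response element.
Slc29a4: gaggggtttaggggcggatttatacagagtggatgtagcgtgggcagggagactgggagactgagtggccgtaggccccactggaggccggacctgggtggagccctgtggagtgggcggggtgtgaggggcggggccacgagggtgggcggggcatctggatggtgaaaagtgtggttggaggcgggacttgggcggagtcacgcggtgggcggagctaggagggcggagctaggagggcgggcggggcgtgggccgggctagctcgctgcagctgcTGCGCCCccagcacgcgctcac
Slc22a5: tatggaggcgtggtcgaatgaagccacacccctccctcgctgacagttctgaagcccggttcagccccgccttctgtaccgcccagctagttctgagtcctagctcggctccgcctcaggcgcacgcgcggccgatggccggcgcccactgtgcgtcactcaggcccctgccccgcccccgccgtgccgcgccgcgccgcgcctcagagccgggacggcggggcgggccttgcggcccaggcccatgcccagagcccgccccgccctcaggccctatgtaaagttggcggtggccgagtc
Slc2a12: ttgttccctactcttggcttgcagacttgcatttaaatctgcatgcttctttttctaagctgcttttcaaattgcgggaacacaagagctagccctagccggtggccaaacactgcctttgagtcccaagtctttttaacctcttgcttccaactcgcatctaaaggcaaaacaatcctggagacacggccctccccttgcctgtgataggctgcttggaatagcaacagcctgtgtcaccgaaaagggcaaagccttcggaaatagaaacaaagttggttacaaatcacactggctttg
Slc30a1: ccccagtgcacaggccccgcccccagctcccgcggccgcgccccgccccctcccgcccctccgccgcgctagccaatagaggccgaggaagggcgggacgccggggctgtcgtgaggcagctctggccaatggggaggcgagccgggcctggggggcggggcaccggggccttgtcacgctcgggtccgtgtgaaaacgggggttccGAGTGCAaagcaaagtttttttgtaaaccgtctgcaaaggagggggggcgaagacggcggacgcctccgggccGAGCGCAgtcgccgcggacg
The windows lie at chr5:142701851-142702150 (forward strand), chr11:53891654-53891953 (reverse strand), chr10:22644761-22645060 (forward strand) and chr1:191906531-191906830 (forward strand). The RefSeq start of Slc29a4 lies 9589 bases inside the gene as annotated below, so its window is not at the first base of the annotated gene. For the other carriers the starts lie within 50 bases of each other. The Slc30a1 window held 1 match to each form, the Slc29a4 window 1 match to TGCGCNC, and the windows of Slc22a5 and Slc2a12 none. Their GC contents were 70% for Slc29a4, 72.7% for Slc22a5, 47% for Slc2a12 and 73% for Slc30a1, with 22, 34, 6 and 36 CpG dinucleotides. RefSeq held windows for 123 of the 157 members, 160 windows in all, with a median GC content of 61.8% and a median of 19 CpG, against 52.7% and 7 in 32851 windows of all genes. TGCGCNC was found in 26.9% of member windows and 15.4% of all windows, and TGCACNC in 16.3% and 12.6%. Of the 16 windows of metal carriers, 5 (31.3%) held TGCACNC and 4 (25%) TGCGCNC. The E-box CACGTG was in 15% of member windows against 7.15%, the amino acid response motif TGATGCAAT in 0 against 0.192%, and TAATCC, a motif of the Otx factors, in 5% against 7.06%. These are matches of letters in a fixed window.

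Some libraries stood apart in ways that touch the carriers. The library of MRL/+ at 12 weeks, replicate 1, held summed neuronal markers of 688 CPM and cerebellar markers of 320.4, against medians of 179.9 and 28.7 over the 18 libraries. The neuronal list includes the member Slc17a7, and the astrocyte list the members Slc1a2 and Slc1a3. Sums of those lists are thus not independent of these carriers. MRL/+ at 16 weeks, replicate 1, held summed skeletal muscle markers of 637 CPM (median 12.9), and MRL/lpr at 12 weeks, replicates 1 and 4, held pineal markers of 71.1 and 64 CPM (median 3.31). Counts without these 4 libraries are given beside the results below. Other libraries with high brain markers were kept in those counts. MRL/lpr at 16 weeks, replicate 3, held neuronal and astrocyte sums of 735 and 754 CPM, and replicate 6 a neuronal sum of 579. MRL/lpr at 12 weeks, replicate 5, held an oligodendrocyte sum of 748 (median 243.6). Leaving out the 4 also takes 1 of the 3 MRL/+ libraries of each age. Between strains, the 20 immune markers summed to 59.7 to 74.3 CPM in MRL/+ and 946 to 3519 in MRL/lpr at 12 weeks, and to 58.7 to 75.9 and 425 to 4984 at 16 weeks. The 21 epithelial markers, Ttr not counted, summed to 69011 to 107004 CPM in MRL/+ and 63005 to 97752 in MRL/lpr at 12 weeks, and to 95022 to 100221 and 42663 to 86368 at 16 weeks. In bulk tissue, fewer epithelial cells and less RNA per cell cannot be told apart.

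The carriers with the highest levels per length in MRL/+ came from several classes. Slc22a17, a receptor for the siderophore-binding protein lipocalin-2, was highest at 797 CPM per kb of exon, where the median member had 7.64. Next came the mitochondrial ADP/ATP carriers Slc25a4 at 287 and Slc25a5 at 259.6 CPM per kb, which have close paralogs and pseudogenes whose reads the counting may have split. The zinc importer Slc39a12 had 175 and the copper importer Slc31a1 153 CPM per kb. Slc29a4, the plasma membrane monoamine transporter, was at 110.0, the glucose carrier Slc2a12 (GLUT12) at 97.5, the sulfate carrier Slc13a4 at 87.7 and the neutral amino acid carrier Slc7a10 at 87.6 CPM per kb. By class, the median level per kb was highest for sugar carriers (14.2), metal carriers (12.4), vitamin, nucleoside and choline carriers (10.5) and Slc25 carriers (10.5). It was lowest for bicarbonate and anion exchangers (2.12), a class from which the rule left out Slc4a2, Slc4a5 and Slc4a10. The plot of levels by transport class shows this order. The iron exporter ferroportin (Slc40a1) and the zinc importer Slc39a8 were under the threshold.

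**Figure D1:**
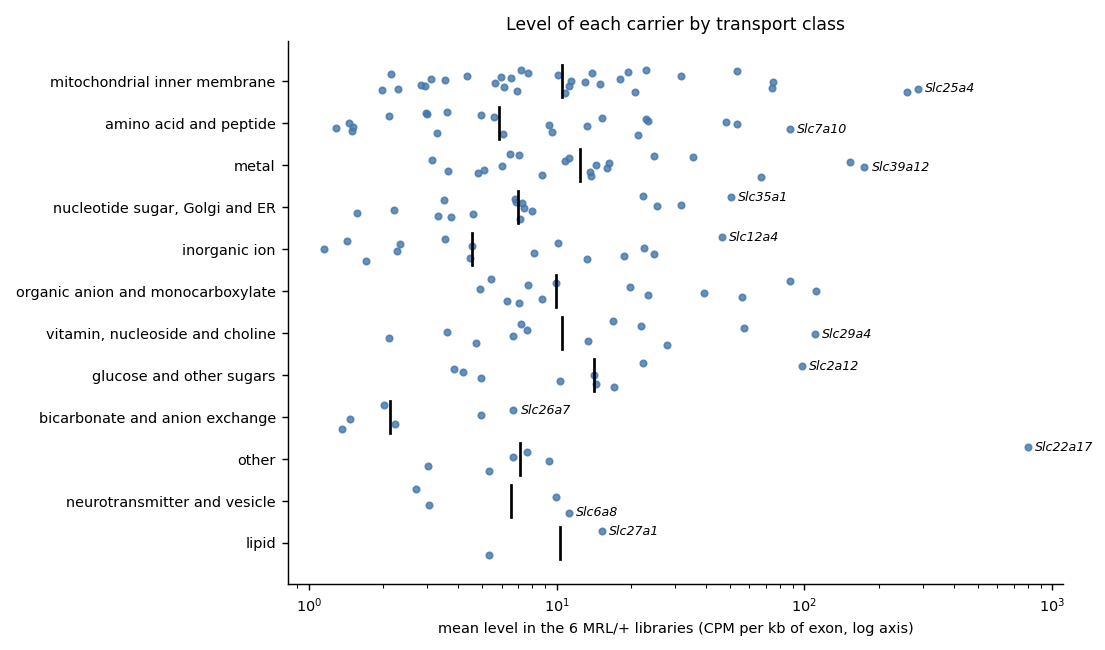
Mean level of each of the 157 carriers in the 6 MRL/+ libraries, in CPM per kb of exon on a log axis, by transport class; each point is 1 gene, the black bar is the class median and the highest gene of most classes is named. Slc22a17 stands highest at 797 CPM per kb, and bicarbonate and anion exchangers have the lowest class median (2.12).

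Carriers known from neurons and glia stood high in 1 library. In MRL/+ at 12 weeks, replicate 1, 9 members were at least 2 times as high as in any other MRL/+ library. Among them were the neuronal sodium, calcium and potassium exchanger Slc24a2, the glial glutamate carriers Slc1a3 and Slc1a2, the sodium bicarbonate cotransporter Slc4a4, the neuronal potassium chloride cotransporter Slc12a5, the vesicular glutamate carrier Slc17a7, the taurine carrier Slc6a6 and Slc24a3. Slc1a3 stood at 153 CPM there and at 10.8 to 27.5 in the other 5 MRL/+ libraries, and Slc4a4 at 58 against 3.51 to 10.6. Without that library 9 members would fall under 10 CPM, among them Slc24a3, Slc25a24, Slc24a2, Slc4a4, Slc6a6, Slc17a7, Slc36a1 and Slc25a35. The strain difference of these genes at 12 weeks turned on it as well: with the library Slc1a3 had a log2 fold change of -0.92 and Slc4a4 of -1.07, and without it 0.78 and 0.56 (adjusted p 0.668 and 0.862). The part of neuronal RNA in these values was not tested.

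**Figure D2:**
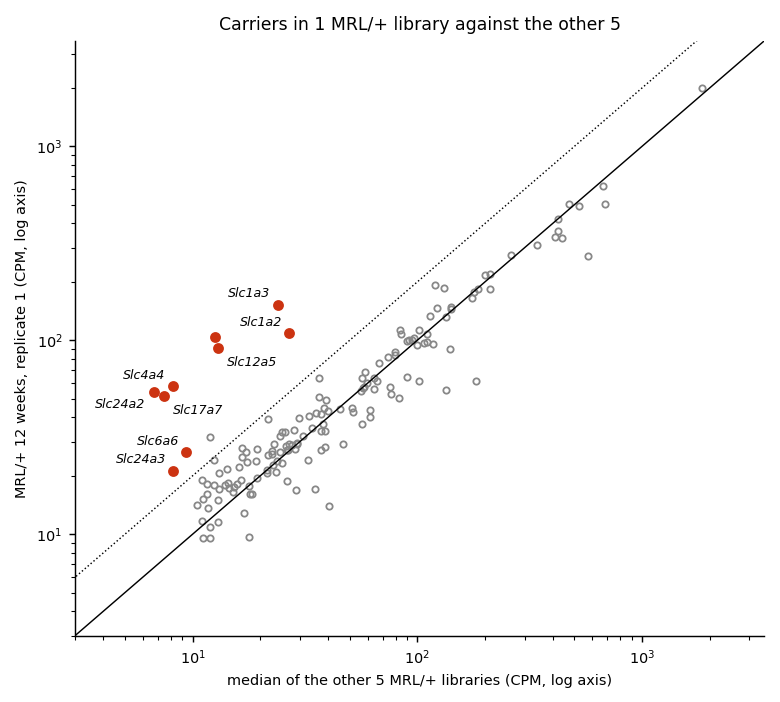
Level of each of the 157 carriers in MRL/+ at 12 weeks, replicate 1, against the median of the other 5 MRL/+ libraries, both in CPM on log axes; the solid line marks equal levels, the dotted line 2 times, and filled points are the 9 carriers at least 2 times as high there as in any other MRL/+ library. Slc1a3 lies at 153 CPM against a median of 23.9.

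The comparison of strains asks which carriers differ in the choroid plexus of lupus-prone mice at each age. At 12 weeks none of the 157 members was called higher in MRL/lpr and 3 were called lower (edgeR's quasi-likelihood test, Benjamini-Hochberg adjusted p under 0.05 over all genes). Of all genes tested, 5.01% were called higher and 1.34% lower, and of the 9033 genes with an MRL/+ mean of at least 10 CPM, which share the members' level, 0.675% and 2.14%. At 16 weeks 2 members were called higher and 10 lower, against 8.49% and 2.64% of all genes and 1.84% and 3.92% at that level. The members' shares, 1.91% lower at 12 weeks and 6.37% lower and 1.27% higher at 16 weeks, were thus of the order of the genes of like level. Slc35f1 was called at both ages, and 14 members at either. Averaged over both ages, a comparison added after the data were seen, 2 members were higher and 17 lower (1.27% and 10.8%), against 11% and 5.22% of all genes and 2.56% and 8.38% of the genes at that level. Without the 4 libraries named above, no member was called at 12 weeks, 2 were called lower at 16 weeks (Slc29a4 and Slc22a5) and 4 over both ages, with none higher.

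The size of the differences was small across the set. The members' median log2 fold change was -0.15 at 12 weeks and -0.05 at 16 weeks, against -0.01 and 0.03 for all genes and -0.09 and -0.09 for genes of like level. At 12 weeks 124 of 157 members had a value under 0 (79%, against 63.3% of genes of like level), and at 16 weeks 90 (57.3%, against 62.1%). In the same fit 19 of the 20 immune markers were called higher at 12 weeks and 20 of 20 at 16 weeks, with none at 0 in all 6 MRL/+ libraries (the T cell marker Cd3e and the B cell marker Ms4a1 were at 0 in the 3 of 12 weeks), and 0 and 6 of the 21 epithelial markers were called lower, with median log2 fold changes of -0.35 and -0.48. The part of these shifts in cell content in the carriers' values was not tested. The plot of fold changes by transport class shows the called members against the spread of their class.

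**Figure D3:**
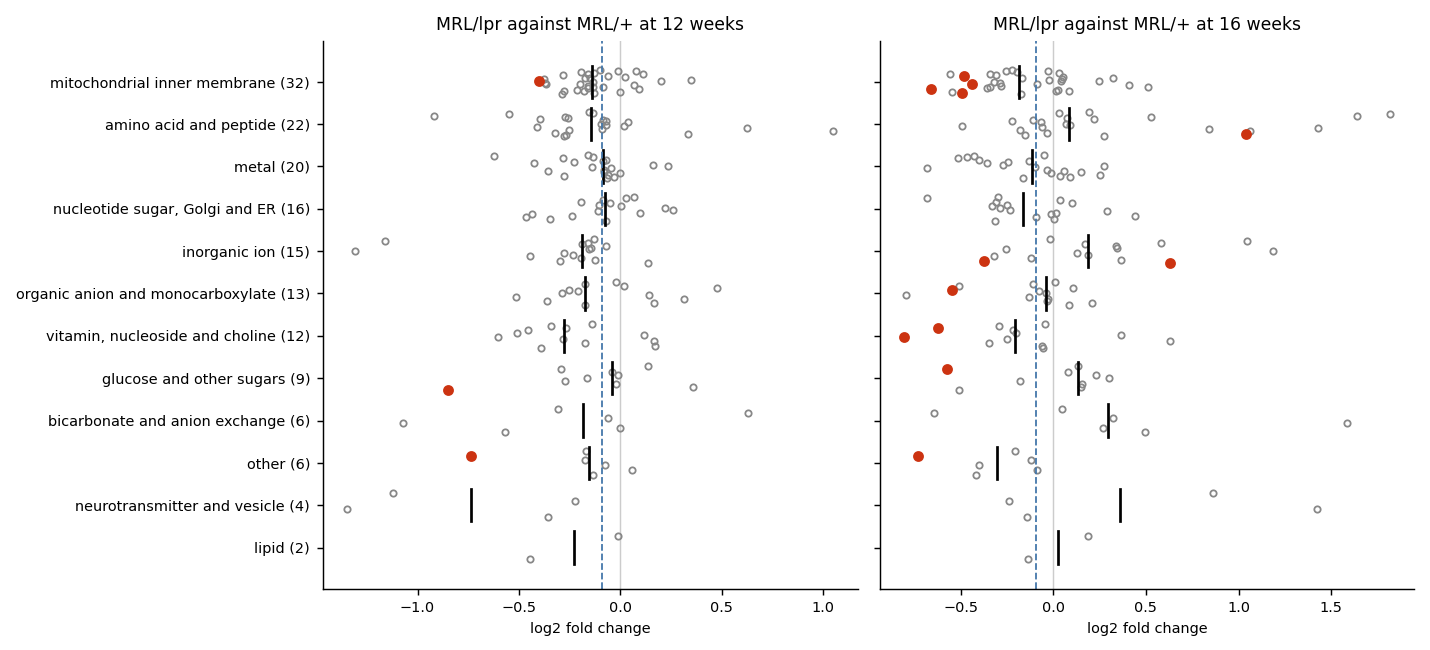
Log2 fold change of MRL/lpr against MRL/+ for each carrier at 12 weeks (left) and 16 weeks (right), by transport class with the number of genes; red filled points have an adjusted p under 0.05, black bars are class medians and the dashed line is the median of the 9033 genes with an MRL/+ mean of at least 10 CPM. At 12 weeks 3 points are filled, all below 0, and at 16 weeks 12 are, 10 of them below 0.

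At 16 weeks the smallest adjusted p-values among the members were those of Slc22a5 and Slc29a4. Slc29a4 (chromosome 5, 142692512 to 142722490), which takes up serotonin and dopamine at the plasma membrane, was at 309, 342 and 345 CPM in MRL/+ and 183 to 274 (median 196) in MRL/lpr at 12 weeks, and at 251, 247 and 395 and 126 to 200.3 (median 172) at 16 weeks. All MRL/lpr libraries of an age lay below all MRL/+ libraries of that age. It fell 1.75-fold at 16 weeks (log2 fold change -0.81 with an SE of 0.18, adjusted p 0.00855). The 12-week difference missed the threshold (log2 fold change -0.60 with an SE of 0.18, adjusted p 0.0563), while the average over both ages passed it (-0.70, adjusted p 0.000848). Slc22a5 (chromosome 11, 53864542 to 53891660), the sodium-dependent carnitine carrier, was at 55.7, 73.3 and 64.1 CPM in MRL/+ and 48.4 to 59.7 (median 51.9) in MRL/lpr at 12 weeks, where the groups overlapped, and at 62.3, 60.6 and 86.8 and 35.9 to 52 (median 46.6) at 16 weeks, where they did not. It fell 1.54-fold at 16 weeks (log2 fold change -0.62 with an SE of 0.13, adjusted p 0.00662), with -0.27 (adjusted p 0.256) at 12 weeks. Both calls at 16 weeks were lost without MRL/+ replicate 3, whose levels were the highest of that group (adjusted p 0.101 for Slc29a4 and 0.0778 for Slc22a5). The average over both ages passed in all 18 fits that left out 1 library, for both genes.

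Slc29a4 and Slc22a5, which carry monoamines and carnitine, were placed in the class of vitamin, nucleoside and choline carriers. These 2 were 16.7% of the class lower at 16 weeks, against 2.64% of all genes and 3.92% of genes of like level. The other 10 of the class of 12 were not called at either age. Slc23a2, the vitamin C carrier SVCT2, had 506 ± 18.1 CPM in MRL/+ and 369 ± 103 in MRL/lpr at 12 weeks, and 399 ± 65.3 and 343 ± 99.2 at 16 weeks (adjusted p 0.244 and 0.520). The folate carriers Slc19a1 and Slc46a1, which act on folate's way into the CSF, had log2 fold changes of -0.14 and -0.18 at 12 weeks and -0.05 and -0.35 at 16 weeks, with none passing the test. Slc5a6, which takes up biotin and pantothenate, had -0.39 and -0.05. The thiamine carrier Slc19a2 was lower over both ages only (-0.32, adjusted p 0.0468), a call that held in 2 of 18 fits without 1 library. The class median was -0.28 at 12 weeks and -0.21 at 16 weeks.

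Sugar carriers showed 2 calls among 9 members, 1 at each age. That was 11.1% of the class lower at each age, resting on 1 gene each time. Of all genes 1.34% and 2.64% were lower at 12 and 16 weeks, and of genes of like level 2.14% and 3.92%. Slc2a12 (chromosome 10, 22645011 to 22704285) was at 342, 409 and 433 CPM in MRL/+ and 264 to 387 (median 313) in MRL/lpr at 12 weeks, and at 396, 373 and 525 and 255 to 324 (median 296) at 16 weeks. The groups overlapped at 12 weeks and not at 16. It fell 1.49-fold at 16 weeks (log2 fold change -0.57 with an SE of 0.14, adjusted p 0.0139, and 0.129 without MRL/+ replicate 3), with -0.29 (adjusted p 0.239) at 12 weeks and -0.43 (adjusted p 0.00544) over both ages. Its exons overlap those of Tbpl1 on the other strand, which itself had -0.26 (adjusted p 0.151) at 16 weeks. Slc5a3 (chromosome 16, 92058322 to 92087473), which takes up myo-inositol with sodium, was at 177, 212 and 177 CPM in MRL/+ and 71.9 to 152 (median 102) in MRL/lpr at 12 weeks, and at 178, 175 and 199 and 86.2 to 172 (median 128) at 16 weeks. No MRL/lpr library reached an MRL/+ library of the same age. It fell 1.80-fold at 12 weeks (log2 fold change -0.85 with an SE of 0.22, adjusted p 0.0249), a call kept in 4 of 9 fits without 1 library, and had -0.51 (adjusted p 0.137) at 16 weeks and -0.68 (adjusted p 0.00493) over both. Slc5a3 shares exon sequence with Mrps6 on the same strand, and Mrps6 had -0.13 (adjusted p 0.667) at 12 weeks. GLUT1 (Slc2a1), the main glucose carrier of brain barriers, stood at 83.2 ± 3.17 CPM in MRL/+ and 91.6 ± 15.2 in MRL/lpr at 12 weeks, and 73.8 ± 13.7 and 81 ± 8.02 at 16 weeks, with 0.14 (adjusted p 0.597) and 0.14 (adjusted p 0.523).

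Amino acid carriers held both higher calls over the 2 ages, Slc7a5 and Slc6a6. They were 9.09% of the class of 22, against 11% of all genes and 2.56% of genes of like level. Slc7a5 (chromosome 8, 121881150 to 121907694), the light chain of the large neutral amino acid exchanger LAT1, was at 18.1, 13.6 and 12.6 CPM in MRL/+ and 13.2 to 24.6 (median 17.5) in MRL/lpr at 12 weeks, and at 7.97, 9.64 and 11.6 and 11.9 to 27.5 (median 20.4) at 16 weeks. The groups overlapped at 12 weeks and were apart at 16, by less than 1 CPM. It rose 2.05-fold at 16 weeks (log2 fold change 1.04 with an SE of 0.27, adjusted p 0.0216), with 0.34 (adjusted p 0.484) at 12 weeks. The call was kept in 6 of 9 fits without 1 library and lost without any 1 of the MRL/+ libraries. Its partner chain Slc3a2 was not called, at 206 ± 9.28 CPM in MRL/+ and 197 ± 47.7 in MRL/lpr at 12 weeks, and 172 ± 41.4 and 183 ± 39.1 at 16 weeks (-0.07, adjusted p 0.869 and 0.09, adjusted p 0.787). Slc6a6 (chromosome 6, 91684053 to 91759066), which takes up taurine, was at 26.5, 10.8 and 9.09 CPM in MRL/+ and 12.8 to 39.6 (median 24.3) in MRL/lpr at 12 weeks, and at 9.37, 11.8 and 8.76 and 12.2 to 52.7 (median 24.8) at 16 weeks. The groups overlapped at 12 weeks and were apart at 16, also by less than 1 CPM. It was higher over both ages (1.03, adjusted p 0.0388), in 6 of 18 fits without 1 library, and had 1.38 (adjusted p 0.0114) without MRL/+ at 12 weeks, replicate 1. That library held the highest MRL/+ level of Slc6a6, so the larger value without it is no independent support. Over the other 5 MRL/+ libraries the mean was 9.09 CPM of the column total, which is under the threshold of the set. The cystine and glutamate exchanger Slc7a11 had a similar log2 fold change at both ages, 1.05 and 1.06, that did not pass the test (adjusted p 0.245 and 0.181, and 0.0560 over both ages), with SDs of 18.6 and 28.1 CPM in MRL/lpr. Immune markers differed between the strains in the same direction as these 3 carriers, and their part in them was not tested.

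The remaining amino acid and peptide carriers were not called. Slc7a10, the best expressed of the class per length, had 192 ± 12.3 CPM in MRL/+ and 161 ± 30.7 in MRL/lpr at 12 weeks, and 178 ± 27.3 and 157 ± 23.4 at 16 weeks. The glutamine carriers Slc38a3 and Slc38a2 had 0.04 and -0.07 at 12 weeks and -0.07 and -0.22 at 16 weeks, and the peptide carrier Slc15a2, which clears peptides from the CSF, -0.16 and 0.19. The class median was -0.14 at 12 weeks and 0.08 at 16 weeks. The proline and sarcosine carrier Slc6a20a, whose name the rule does not match, was lower at 16 weeks, at 48.9 ± 5.61 CPM against 68 ± 7.22 (log2 fold change -0.48 with an SE of 0.12, adjusted p 0.0152).

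No metal carrier was called at either age. Of 20, 18 had values under 0 at 12 weeks and 14 at 16 weeks, with medians of -0.08 and -0.11, close to those of genes of like level. Over both ages 4 were called lower, 20% of the class, against 5.22% of all genes and 8.38% of genes of like level. They were the copper importer Slc31a1 (-0.39, adjusted p 0.0307), the zinc exporter Slc30a1 (-0.53, adjusted p 0.0389), Slc30a5, which loads zinc into the secretory pathway (-0.40, adjusted p 0.0245), and Slc30a9 (-0.24, adjusted p 0.0305). Slc31a1 was at 623, 755 and 671 CPM in MRL/+ and 389 to 612 (median 511) in MRL/lpr at 12 weeks, and at 551, 574 and 762 and 385 to 605 (median 482) at 16 weeks. The groups were apart at 12 weeks and overlapped at 16. Slc30a1, whose promoter is printed above, was at 40.8, 44.3 and 32.8 CPM in MRL/+ and 19.7 to 34.1 (median 25.5) in MRL/lpr at 12 weeks, and at 24.2, 28.7 and 50.8 and 18.5 to 35.6 (median 24.5) at 16 weeks. Its groups overlapped at both ages. These 4 calls were kept in 11 of 18, 7 of 18, 12 of 18 and 9 of 18 fits without 1 library. Of 7 other settings, they were kept in 2, 2, 2 and 3. All 4 were lost with total counts, with the epithelial scaling, with no filter on low counts and without the 4 libraries named above. Slc39a12, the metal carrier with the highest level per length, had the largest coefficient of variation of the class in MRL/+ at 12 weeks, at 273, 561 and 519 CPM, and had -0.05 (adjusted p 0.938) and -0.68 (adjusted p 0.111). The iron importer Slc11a2 and the zinc and iron importer Slc39a14 were close to 0 at 16 weeks (-0.05 and 0.06), as was the intestinal-type zinc importer Slc39a4 (-0.01).

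Of 13 organic anion and monocarboxylate carriers, 1 was called. That was 7.69% lower at 16 weeks, against 2.64% of all genes and 3.92% of genes of like level. Slc16a12 (chromosome 19, 34668403 to 34747289), a carrier of creatine, was at 64.5, 90.6 and 89.6 CPM in MRL/+ and 46.9 to 81.5 (median 71.5) in MRL/lpr at 12 weeks, and at 79.5, 66.9 and 91.5 and 44 to 64.9 (median 55.2) at 16 weeks. At 16 weeks every MRL/lpr library was below every MRL/+ library, while at 12 weeks the groups overlapped. It fell 1.46-fold at 16 weeks (log2 fold change -0.55 with an SE of 0.17, adjusted p 0.0485), close to the threshold and in 2 of 9 fits without 1 library. Other carriers known from the barrier were not called: the lactate carrier Slc16a8 had 0.32 (adjusted p 0.379) and -0.03 (adjusted p 0.932), and the sulfate carrier Slc13a4 -0.17 (adjusted p 0.656) and -0.11 (adjusted p 0.733). The organic anion carrier Slc22a8 (OAT3), which clears drugs and metabolites from the CSF, stood at 22.8 ± 3.61 CPM in MRL/+ and 20.3 ± 5.73 in MRL/lpr at 12 weeks, and 26 ± 3.26 and 27.6 ± 13.7 at 16 weeks. MCT1 (Slc16a1) had 0.02 (adjusted p 0.971) and -0.51 (adjusted p 0.113).

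None of the 6 bicarbonate and anion exchangers was called. Slc4a7, an electroneutral sodium bicarbonate cotransporter, had 17.1 ± 1.82 CPM in MRL/+ and 17 ± 5.20 in MRL/lpr at 12 weeks, and 15.8 ± 0.172 and 19.1 ± 6.31 at 16 weeks. Slc26a7, the member with the highest level per length, had 24.3 ± 9.26 and 37.6 ± 15.5 CPM at 12 weeks and 48.5 ± 9.99 and 31.1 ± 13.2 at 16 weeks in MRL/+ and MRL/lpr, with log2 fold changes of opposite sign (0.63 and -0.64). The test of that reversal did not pass (interaction -1.27 (adjusted p 0.361)). Slc4a4 rested on the single MRL/+ library described above at 12 weeks and, at 16 weeks, on 1 MRL/lpr library, replicate 3, with 67.4 CPM against 2.74 to 19.8 in the other 5. That library also had the highest neuronal and astrocyte marker sums of its group, 735 and 754 CPM.

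Among carriers of other inorganic ions, 1 of 15 was called higher, at 16 weeks. That was 6.67%, against 8.49% of all genes and 1.84% of genes of like level. Slc9a8 (chromosome 2, 167421712 to 167477000), a sodium and proton exchanger of the Golgi apparatus, was at 13.5, 13.2 and 14.3 CPM in MRL/+ and 17.7 to 25.6 (median 21.4) in MRL/lpr at 16 weeks, with no overlap. It rose 1.55-fold (log2 fold change 0.63 with an SE of 0.19, adjusted p 0.0382), a call kept in 2 of 9 fits without 1 library, and had 0.14 (adjusted p 0.691) at 12 weeks. Slc24a5 was lower over both ages only (-0.38, adjusted p 0.0293), and its exons overlap Myef2 on the other strand. The potassium chloride cotransporter Slc12a4, the best expressed of the class per length, had -0.13 and -0.02.

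The Slc25 family, carriers of ADP, phosphate and other metabolites across the mitochondrial inner membrane, gave 4 of the 10 lower calls at 16 weeks. Slc25a4 (chromosome 8, 46206797 to 46211284), an ADP/ATP carrier of muscle and brain, was at 502, 611 and 648 CPM in MRL/+ and 392 to 787 (median 657) in MRL/lpr at 12 weeks, and at 817, 686 and 782 and 339 to 587 (median 488) at 16 weeks. Slc25a5, its paralog, was at 493.5, 441 and 409.8 and 271 to 349 (median 325) CPM at 16 weeks. For both genes the strains overlapped at 12 weeks and not at 16. They fell 1.58-fold (log2 fold change -0.66 with an SE of 0.20, adjusted p 0.0399) and 1.41-fold (log2 fold change -0.49 with an SE of 0.14, adjusted p 0.0350), and the highest Slc25a4 level was that of the MRL/+ library with muscle markers. Slc25a17, a carrier of the peroxisome, and the pyrimidine nucleotide carrier Slc25a33 fell to 41.7 ± 4.59 from 58.3 ± 2.73 CPM (adjusted p 0.0299) and to 20.8 ± 1.5 from 28.3 ± 1.42 (adjusted p 0.0324). These 4 calls were kept in 2 of 9, 3 of 9, 3 of 9 and 2 of 9 fits without 1 library. Slc25a25, the ATP and phosphate exchanger regulated by calcium, fell 1.32-fold at 12 weeks (log2 fold change -0.40 with an SE of 0.11, adjusted p 0.0329), from 33.7, 33.6 and 32.7 CPM to 23.3 to 30.3 (median 24.4), without overlap, and had 0.25 (adjusted p 0.153) at 16 weeks. Its interaction with age did not pass (adjusted p 0.361), and its exons overlap Naif1 on the other strand. The family's median was -0.14 at 12 weeks and -0.19 at 16 weeks, and 15 of 32 members had an unadjusted p under 0.05 at 16 weeks, 11 of them lower (46.9% of the family, against 28.8% of all genes and 26.9% of genes of like level in either direction). Over both ages Slc25a5 and Slc25a33 were lower, with -0.31 and -0.32 (adjusted p 0.0442 and 0.0194), as were the aspartate and glutamate exchanger Slc25a12 and the NAD carrier Slc25a51, with -0.20 and -0.23 (adjusted p 0.0439 and 0.0186). In this order the 4 calls were kept in 5 of 18, 16 of 18, 3 of 18 and 13 of 18 fits without 1 library.

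Of the remaining classes, 1 member was called. Slc35f1 (chromosome 10, 52690533 to 53111622), a carrier of the nucleotide sugar superfamily with no settled substrate, was at 33.9, 45.9 and 38.7 CPM in MRL/+ and 14.8 to 29.7 (median 24.9) in MRL/lpr at 12 weeks, and at 32.9, 26.5 and 47.6 and 16.2 to 25.7 (median 22.6) at 16 weeks. All MRL/lpr libraries lay below those of MRL/+ at both ages. It fell 1.67-fold at 12 weeks (log2 fold change -0.74 with an SE of 0.21, adjusted p 0.0444) and 1.66-fold at 16 weeks (log2 fold change -0.73 with an SE of 0.21, adjusted p 0.0351). The single-age calls were kept in 1 of 9 and 4 of 9 fits without 1 library, and the average over both ages (-0.73, adjusted p 0.00218) in 18 of 18. None of the 16 Golgi and endoplasmic reticulum carriers was called. Slc35a1, which brings CMP-sialic acid into the Golgi apparatus and has the highest level per length among them, had 0.03 (adjusted p 0.968) and -0.68 (adjusted p 0.111). Slc22a17 stood at 1896 ± 80.0 CPM in MRL/+ and 1684 ± 275 in MRL/lpr at 12 weeks, and 1760.3 ± 437 and 1526 ± 213 at 16 weeks (adjusted p 0.596 and 0.426). Among the 4 neurotransmitter carriers the creatine carrier Slc6a8 had -0.36 (adjusted p 0.0996) and -0.14 (adjusted p 0.454), and of the lipid carriers Slc27a4 had -0.44 (adjusted p 0.105) and -0.14 (adjusted p 0.574).

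**Figure D4:**
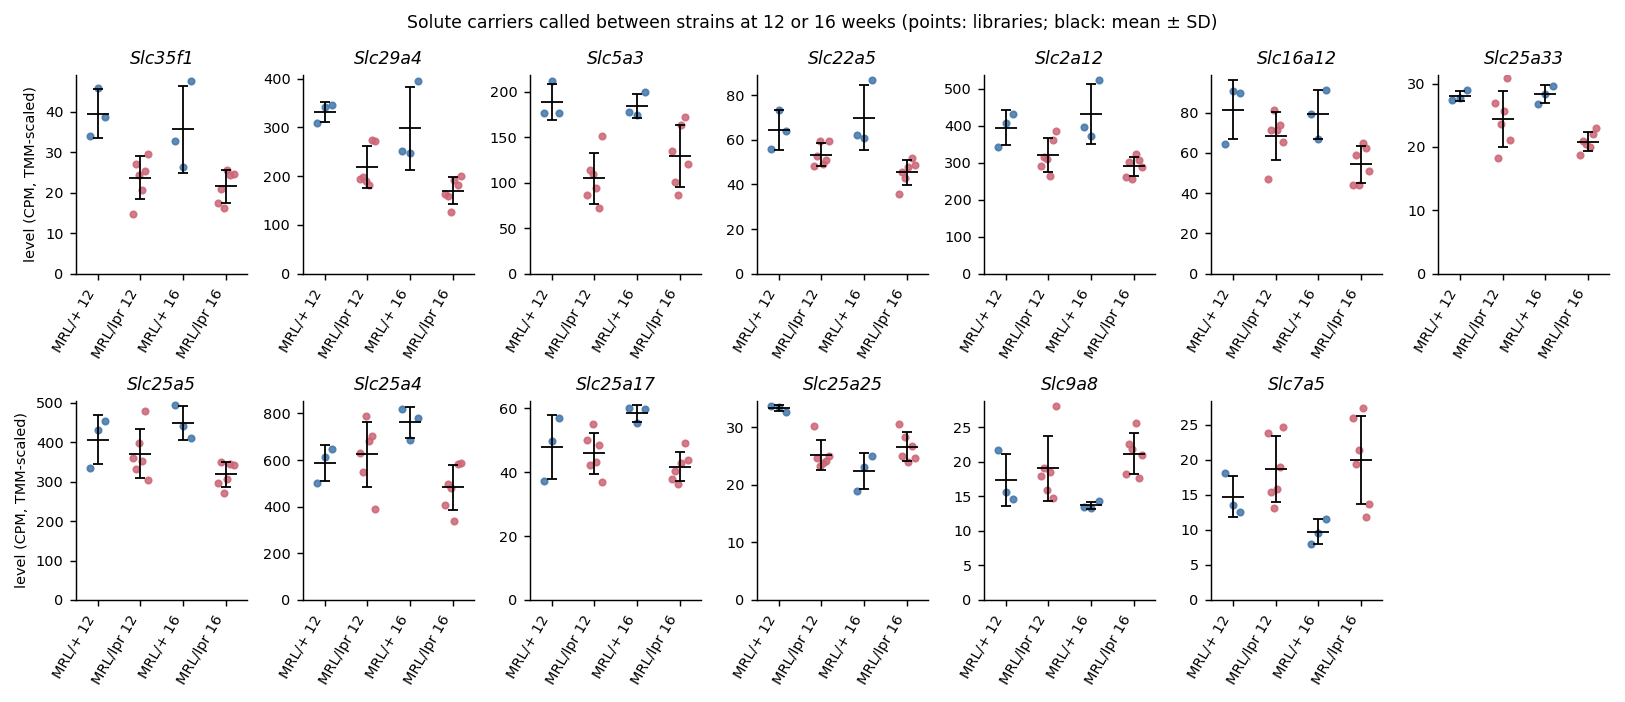
Level in CPM (library sizes scaled by TMM) of 13 carriers called between strains at 12 or 16 weeks, ordered by their difference averaged over both ages; each point is 1 library (blue MRL/+, n = 3 per age; red MRL/lpr, n = 6 per age), and black marks give the mean ± SD. Slc29a4, Slc5a3 and Slc35f1 show every MRL/lpr library below every MRL/+ library of the same age, and Slc7a5 and Slc9a8 are higher in MRL/lpr at 16 weeks.

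The direction of the calls at 16 weeks depended on how libraries were scaled. TMM, the main scaling, centres most genes near 0, with a median of 0.03 over all genes. Scaled by total counts that median was 0.28, and scaled to the summed epithelial markers it was 0.75, since the list itself was lower in MRL/lpr. Most of that sum was 1 gene, Enpp2, at 75979 CPM in MRL/+ and 46545 in MRL/lpr at 16 weeks. Enpp2 had a log2 fold change of -0.71 there, against a median of -0.48 over the 21 markers. The epithelial scale thus follows Enpp2 more than the typical marker. On the epithelial scale no member was called lower at 16 weeks and 75 were called higher (47.8%), as were 47.8% of all genes and 51.5% of genes of like level. With total counts 1 member was lower and 6 higher (3.82%), against 11.7% higher of all genes and 5.14% of genes of like level. Relative to the median of all genes under each scaling, Slc29a4 was at -0.83, -0.84 and -0.86 with TMM, total counts and the epithelial list, Slc22a5 at -0.65, -0.65 and -0.67, and Slc7a5 at 1.01, 1.04 and 1.06. Relative to that median each of the 3 moved by less than 0.1. A change of scaling shifts all genes by nearly the same amount, so subtracting the median removes most of it for any gene. That closeness is therefore no test of these carriers. On the epithelial scale, which Enpp2 dominates, Slc22a5 and Slc2a12 had values above 0 (0.07 and 0.13). With TMM they were at -0.62 and -0.57, inside the range of the epithelial markers. Those had a median of -0.48 and ran from -1.10 (Prlr) to 0.24 (Car12). The part of epithelial content in the 2 carriers' values was not tested. Slc29a4 and Slc35f1 had values below 0 under all 3 scalings, at -0.12 and -0.05 on the epithelial scale.

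**Figure D5:**
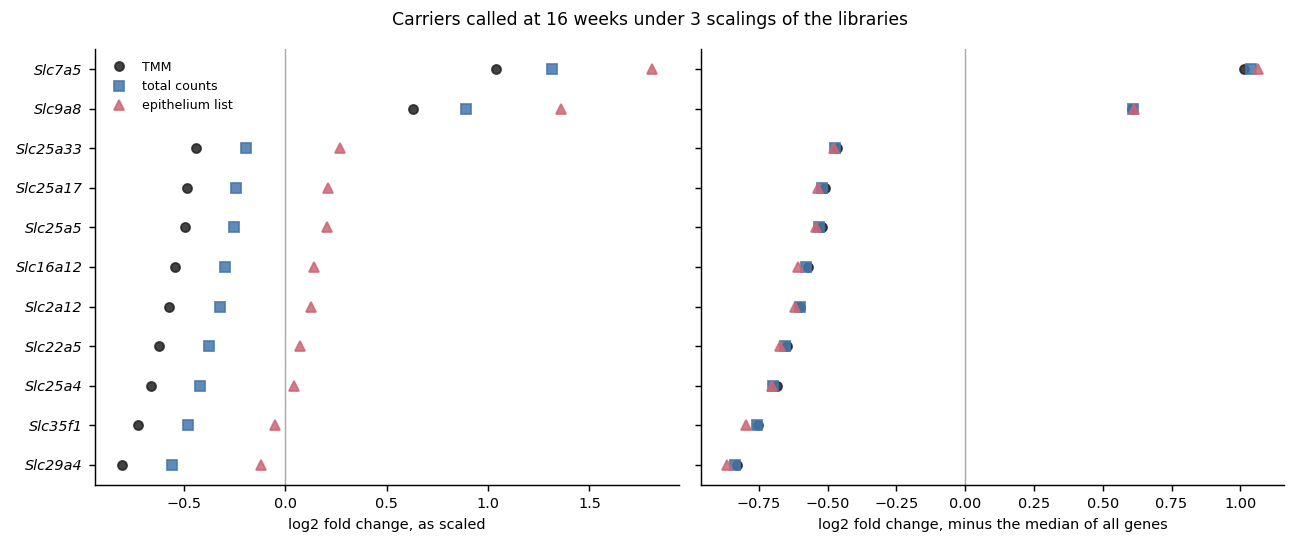
Log2 fold change of MRL/lpr against MRL/+ at 16 weeks for 11 carriers called there, under 3 scalings of the libraries: as scaled (left) and after subtracting the median of all genes under the same scaling (right). On the left the epithelial scaling moves 7 of the 9 lower carriers shown above 0. On the right the 3 scalings nearly coincide, which subtracting the median brings about for any gene.

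Between 12 and 16 weeks no member was called in either strain. Of all genes, 0.0361% were called in MRL/lpr and 0% in MRL/+. An unadjusted p under 0.05 was reached in MRL/lpr by 11 members (7.01%, against 6.73% of all genes and 6.71% of genes of like level). In MRL/+ it was reached by 14 members (8.92%, against 13.1% of all genes and 17.1% of genes of like level). The smallest adjusted p among members was 0.548 in MRL/lpr and 0.379 in MRL/+. The strain by age interaction also gave no member and 0% of all genes, and 14 members had an unadjusted p under 0.05 (8.92%, against 13.8% of all genes and 17.7% of genes of like level). DESeq2 called 0 members in MRL/lpr and for the interaction and 1, lower, in MRL/+, where limma voom with sample weights called 3 higher and 9 lower. No carrier was therefore shown to differ between strains more at one age than at the other. The 2 strain comparisons share no library: 87 of 157 members (55.4%) had the same sign at both ages, against 49.5% of genes of like level. So did 11 of the 12 members called at 16 weeks and 2 of the 3 called at 12 weeks. The share among all genes called at an age was not taken, so these last counts have no background beside them.

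Replicates differed among themselves by more in some libraries than in others. The members' median coefficient of variation was 18.6% in MRL/lpr at 12 weeks and 17.3% at 16 weeks, and 11.3% and 18.2% in MRL/+ at 12 and 16 weeks, where genes of like level had 17.5%, 16.2%, 11.2% and 10.1%. In MRL/+ at 16 weeks, replicate 3 held the highest level of the group for 109 of 157 members (69.4%, against 39.7% of genes of like level). These included all 9 sugar carriers and all 12 vitamin, nucleoside and choline carriers but 10 of 32 Slc25 carriers. In MRL/lpr, replicate 6 at 12 weeks was highest for 80 members (51%, against 31.9%) and replicate 4 at 16 weeks for 84 (53.5%, against 30.1%). Those 2 libraries had the highest endothelial marker sums of their groups, 279 and 293 CPM (median of all libraries 84.3), and low neuronal sums, 36.1 and 56.4. Without MRL/+ at 16 weeks, replicate 3, no member was called in either direction at 16 weeks, and without MRL/lpr at 16 weeks, replicate 5, 3 were higher and 20 lower. At 12 weeks the count of lower calls ran from 0, without any 1 of the MRL/+ libraries or MRL/lpr replicate 4, to 9 without MRL/lpr replicate 6. It was 1 without MRL/lpr replicate 1, 2 or 3. The 10 lower calls at 16 weeks became 3 without MRL/lpr replicate 1 or 3 or MRL/+ replicate 1, and 4 without replicate 2 of either strain. Over both ages the 17 lower calls became 7 without MRL/lpr replicate 4 at 12 weeks, MRL/lpr replicate 1 or 3 at 16 weeks or MRL/+ replicate 3 at 16 weeks, and 8 to 11 without any 1 of the MRL/+ libraries of 12 weeks.

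Other transport and handling genes of the barrier, a list of 34 tested genes outside the name rule, was fitted with them. At 12 weeks none was called. At 16 weeks 1 was higher and 2 lower (2.94% and 5.88%, against 8.49% and 2.64% of all genes). Over both ages 4 were higher and 3 lower (11.8% and 8.82%, against 11% and 5.22%). At 16 weeks the drug efflux pump gene Abcb1b was higher (log2 fold change 2.96 with an SE of 0.65, adjusted p 0.00795). Its level was low, at 0.32 ± 0.18 CPM in MRL/+ and 2.54 ± 1.76 in MRL/lpr, so the fold change rests on few counts. Its paralog Abcb1a was not called (0.63, adjusted p 0.467). The part of immune cells in these values was not tested. The carbonic anhydrase gene Car2 (log2 fold change -0.58 with an SE of 0.17, adjusted p 0.0355) and Slc6a20a were lower at 16 weeks. Of the 4 bicarbonate and chloride carriers left out of the set, none was called at either age, and Slc4a10 was lower over both ages (-0.47, adjusted p 0.0353).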

How the data were processed

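The authors deposited raw read counts per gene for 18 choroid plexus libraries, 1 column each. Per the submitters' processing notes, STAR 2.5.3a, featureCounts 1.26.0, DESeq2 1.16.1 and GRCm38 were used. The annotation release, strand setting and handling of multimapping reads are stated in none of the sources used here, and exons of 47 of 157 members overlap another gene (39 on the opposite strand only).

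The members, gene lists and tests were chosen with earlier results of these data known. Counts were fitted with edgeR 4.0.16 (TMM, filterByExpr, 1 mean per group, robust quasi-likelihood) over 16598 genes, with Benjamini-Hochberg adjustment over all of them and a threshold of 0.05. The fit was tested on simulated counts. Levels are CPM with TMM-scaled library sizes, mean ± SD, n = 3 for MRL/+ and n = 6 for MRL/lpr per age. DESeq2 1.42.0, limma 3.58.1 (voom), scalings, filters, membership rules and omitted libraries served as alternatives. Named are a panel of 31 carriers (26 were members), the 6 highest and 6 lowest fold changes among called members per strain comparison (4 and 4 for ages and interaction), the 2 highest per kb in classes of at least 3, and the 3 genes on each side of the threshold. Other called members are named too, except where an item is not reported here. Columns of no sample in the series numbered 0. Others named were chosen after their values were seen.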

Additional observations from a re-analysis of the deposited data

Results flagged for a closer look

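In 13 of the 108 groups of 6 MRL/lpr libraries examined for the named carriers, 1 library stood apart from the other 5 by a Dixon test at the 95% level, which chance alone does in about 1 of 20. The range of the other 5 libraries is in brackets. Replicate 6 of MRL/lpr at 12 weeks stood apart for Slc11a2 at 50.6 CPM (34.7 to 37.8), Slc19a2 at 29.1 CPM (18.5 to 22.1), Slc23a2 at 570.4 CPM (301 to 383), Slc39a14 at 71.2 CPM (36.8 to 47.2) and Slc9a8 at 28 CPM (14.8 to 19.1). Replicate 4 of MRL/lpr at 16 weeks stood apart for Slc11a2 at 53.7 CPM (32.5 to 37.9), Slc13a4 at 489 CPM (274 to 325), Slc22a8 at 54.1 CPM (16.7 to 29.5) and Slc23a2 at 537 CPM (262 to 352). Replicate 1 of MRL/lpr at 12 weeks stood apart for Slc25a25 at 30.3 CPM (23.3 to 25.1). Replicate 3 of MRL/lpr at 12 weeks stood apart for Slc35f5 at 30.8 CPM (19.2 to 23.5). Replicate 5 of MRL/lpr at 16 weeks stood apart for Slc35f5 at 33.8 CPM (18.8 to 22.5). Replicate 3 of MRL/lpr at 16 weeks stood apart for Slc4a4 at 67.4 CPM (2.74 to 19.8). In 9 of the 13 the library was replicate 6 at 12 weeks or replicate 4 at 16 weeks, which also had the highest endothelial marker sums of their groups, 279 and 293 CPM. The part of vessel content in these levels was not tested. For replicate 3 of MRL/lpr at 16 weeks the neuronal and astrocyte sums were the highest of the group, 735 and 754 CPM.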

How the results depend on the processing

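Counts of called members are given as 12 weeks, 16 weeks and both ages averaged, where the main values were 0, 2 and 2 higher and 3, 10 and 17 lower, and only counts that moved by over 1.5 times are listed. DESeq2 gave 5 higher at 16 weeks and 5 over both ages, 6 lower at 12 weeks, and 1 lower between ages in MRL/+. Voom with sample weights gave 5, 13 and 9 higher and 31, 30 and 53 lower, and between ages in MRL/+ 3 higher and 9 lower. Scaling to the epithelial list, whose sum is mostly Enpp2, gave 75 and 54 higher at 16 weeks and over both ages, and 0, 0 and 0 lower. Total counts gave 6 higher and 1 lower at 16 weeks and 5 lower over both ages. With no filter there were 1 and 1 higher at 16 weeks and over both ages and 1, 2 and 6 lower. Fits of only the 2 groups gave 1 and 6 lower at 12 and 16 weeks. Without the 4 libraries named above for neuronal, muscle or pineal markers there were 0 and 0 higher at 16 weeks and over both ages and 0, 2 and 4 lower. Other libraries with high brain markers were kept there. Members chosen on the MRL/lpr level gave 1 and 4 higher at 12 and 16 weeks, a level threshold of 20 CPM 0 and 0 higher at 16 weeks and over both ages, and members chosen without MRL/+ at 12 weeks, replicate 1, 1 higher over both ages. With the replicate number as a block there were 0 higher and 6 lower at 16 weeks and 1 higher over both ages. The numbers did not pair the samples: deviations of same-numbered libraries had correlations of -0.62 to 0.45 (median 0.05), and 2 of 18 libraries correlated best with their own number. Leaving out each library in turn gave 0 to 0, 0 to 3 and 0 to 4 higher and 0 to 9, 0 to 20 and 7 to 19 lower. The cause was not tested.

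Among the named carriers, 5378 values under alternatives kept direction and side of the threshold, 579 uncalled values changed sign, 282 lost and 105 gained a call, and 28 values called under the main or the other setting changed sign, all with the epithelial scaling, which raises the median of all genes. At 16 weeks these were Slc12a4 0.68, Slc16a12 0.14, Slc22a5 0.074, Slc25a12 0.51, Slc25a17 0.21, Slc25a24 0.74, Slc25a33 0.27, Slc25a4 0.044, Slc25a5 0.21, Slc25a51 0.55, Slc2a12 0.13, Slc30a9 0.45 and Slc39a4 0.68. Over both ages they were Slc16a12 0.11, Slc19a2 0.19, Slc22a5 0.065, Slc24a5 0.12, Slc25a12 0.31, Slc25a33 0.20, Slc25a5 0.21, Slc25a51 0.28, Slc2a12 0.085, Slc30a5 0.11, Slc30a9 0.27, Slc31a1 0.11, Slc35b1 0.34, Slc38a3 0.50 and Slc39a4 0.51. Slc29a4, Slc35f1, Slc22a5, Slc5a3 and Slc2a12 kept their calls over both ages in all 18 fits without 1 library. Which of depth, spread and the number of libraries limits the calls was not tested.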

Other observations

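Of the 200 carriers below the level threshold, 113 were tested, and 6 were called higher and 0 lower at 12 weeks, 11 and 1 at 16 weeks, and 15 and 2 over both ages. The shares called higher, 5.31%, 9.73% and 13.3%, were near those of all genes, 5.01%, 8.49% and 11%. Because a low MRL/+ level put them outside the set, their direction is partly fixed by that choice, and no comparison of the 2 sets was tested. Several are known from leukocytes. Slc11a1, the phagosomal metal carrier NRAMP1 of macrophages, stood at 1.33 ± 0.571 CPM in MRL/+ and 9.29 ± 6.40 in MRL/lpr at 12 weeks and at 1.05 ± 0.0711 and 12.3 ± 7.29 at 16 weeks, with log2 fold changes of 2.78 (adjusted p 0.0156) and 3.55 (adjusted p 0.00372). Slc15a3, a lysosomal peptide and histidine carrier of immune cells, rose by 3.32 (adjusted p 0.0248) and 3.34 (adjusted p 0.0168) on the log2 scale, the nucleoside carrier Slc28a2 by 3.95 (adjusted p 0.0111) and 4.32 (adjusted p 0.00516), and Slc7a7, which exports arginine and lysine, by 1.81 (adjusted p 0.0375) and 2.28 (adjusted p 0.00879). In MRL/+ these 3 had means of 0.63, 0.25 and 1.23 CPM at 12 weeks and 0.84, 0.29 and 1.16 at 16 weeks. Fold changes from such low levels rest on few counts. At 16 weeks the lysosomal nucleoside carrier Slc29a3 and the glucose carrier family member Slc2a6 rose as well (1.80 (adjusted p 0.0206) and 2.93 (adjusted p 0.0213)). Immune markers were higher in the same libraries, and their part in these values was not tested.

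Among iron genes of the barrier list outside the name rule, 2 were higher in MRL/lpr over both ages: the ferroxidase ceruloplasmin, Cp (1.14, adjusted p 0.0204), at 33.1 ± 6.84 CPM in MRL/+ and 79.5 ± 40.3 in MRL/lpr at 12 weeks, and 35.9 ± 11.4 and 72.8 ± 37.4 at 16 weeks, and the ferritin heavy chain, Fth1 (0.47, adjusted p 0.0445). The metalloreductase gene Steap2 was lower (-0.62, adjusted p 0.0129). Tfrc, Trf, Ftl1, Heph and Steap3 were not called, with 0.51, 0.22, 0.35, -0.09 and -0.13. Immune markers were higher in the same libraries, and their part in these values was not tested. Neither Slc11a2 nor Slc39a14, which are iron importers among the members, was called in any comparison.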
